A study of Mus musculus with 4 samples.

Results

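Pallial and subpallial activated neural stem cells (aNSCs) of the dorsal ventricular-subventricular zone (V-SVZ) were compared at postnatal day 12 (P12). The cells came from the microdissected dorsal wall of the lateral ventricle of male OF1 mice, for which the labels name no allele or treatment, and were profiled with 10x Genomics 3' version 3 chemistry in 2 P12 libraries, called replicate 1 and replicate 2 here. One library each of P2 and P22, made from 2 pooled mice, was used only for comparison between ages. The tissue was dissociated with papain, and the methods name a sort for viable cells and no sort for a stem cell marker, and a female was found among the P2 mice by the study. The labels name the P12 libraries as 2 independent experiments on 2 males, so that it is not settled how many mice a library holds. The p-values set the difference between classes within a library against how far it varies between the 2 libraries. That spread is partly estimated from all genes together.

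Members were chosen by the molecules counted in each cell, where a unique molecular identifier (UMI) marks 1 captured mRNA. A cell with 2000 to 8000 detected genes and under 10% mitochondrial UMIs was called activated where the natural logarithm of 1 plus its Egfr UMIs per 10000 was above 0.5, where it held at least 1 Slc1a3 UMI and no Dcx UMI, and where it did not hold both Olig1 and Olig2. Pallial aNSCs held Emx1 and no Gsx2, Dlx1 or Dlx2. Subpallial aNSCs held Gsx2 and no Emx1, Eomes, Dlx1 or Dlx2. The rule took 1242 of 11602 P12 cells that passed the filter and of 19860 in the whole series. There were 1021 pallial members, 459 in replicate 1 and 562 in replicate 2, and 221 subpallial members, 72 in replicate 1 and 149 in replicate 2.

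The pallium is the dorsal telencephalon, whose progenitors give glutamatergic neurons of the cortex, and the subpallium is the ventral part, whose progenitors give GABAergic interneurons. Emx1 is a homeobox factor of pallial progenitors and Gsx2 a homeobox factor of the lateral ganglionic eminence, and descendants of both domains line the postnatal ventricle as neural stem cells. Most of these cells are quiescent. Activation brings the epidermal growth factor receptor Egfr, after which cells may divide and become Dlx1- and Dlx2-bearing or Eomes-bearing transit-amplifying progenitors. Bone morphogenetic proteins (BMPs) are known to hold stem cells in quiescence and to induce Id genes through phosphorylated Smad proteins.

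The members were a minority of the 3193 activated cells of P12. Pallial members made up 28.4% of activated cells in replicate 1 and 35.6% in replicate 2, and subpallial members 4.46% and 9.44%. A further 385 and 198 activated cells held Dlx1 or Dlx2. Neither Emx1, Gsx2, Dlx1 nor Dlx2 was detected in 674 and 659, which at this depth does not show that these genes were silent. Emx1 and Gsx2 were found together, without Dlx1 or Dlx2, in 17 and 9 cells, of which 35.3% and 33.3% lay among the 5% of cells with the highest doublet scores. The pallial share was 28.1% of activated cells at P2 (41 of 146 cells) and 6.23% at P22 (22 of 353), whereas the subpallial share was 4.79% (7 cells) and 9.92% (35 cells). P2 and P22 had 1 library each, and the shares were not tested between ages.

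**Figure D1:**
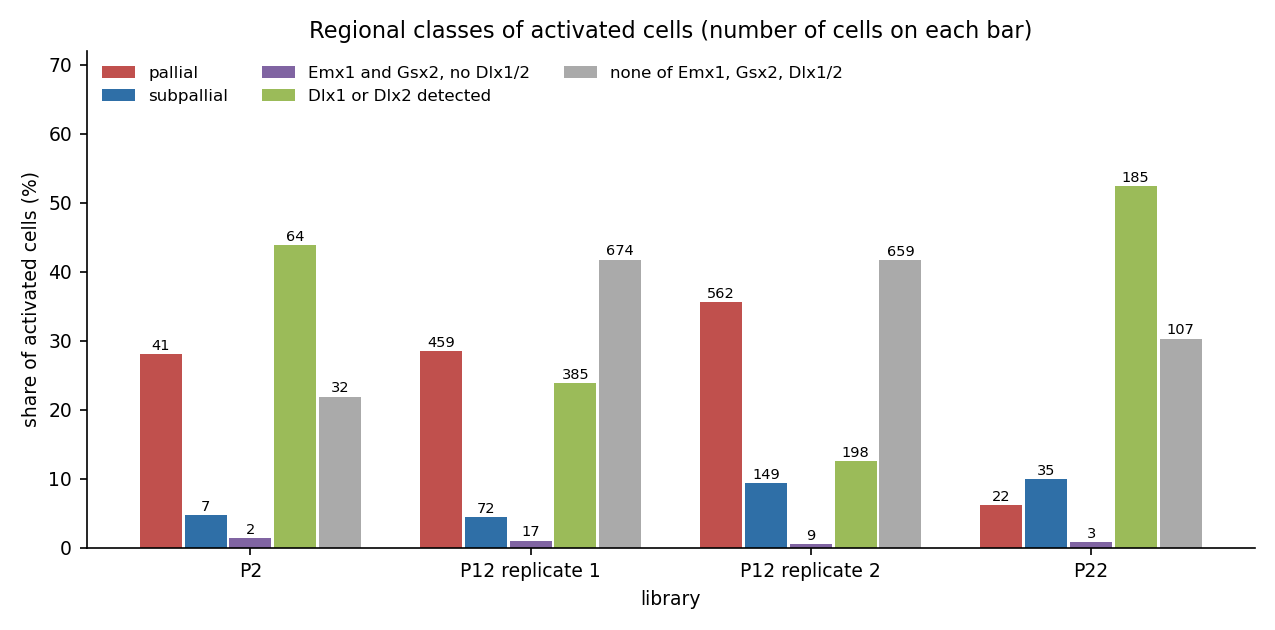
Share of activated cells (y axis, percent) in each library (x axis) that fell into each regional class, with the number of cells on the bars; cells with Gsx2 and Eomes together (10 in all libraries) are not drawn. Pallial cells outnumbered subpallial cells at P2 and in both P12 libraries, and were outnumbered by them at P22 (22 against 35).

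The genes of the rule are described here without a test, because they selected the members. In CPM (counts scaled to the UMI total of a class), Egfr stood at 181 and 201 in pallial aNSCs of replicates 1 and 2, against 275 and 267 in subpallial aNSCs. A single Egfr UMI carried 53.8% and 40.0% of pallial members, against 30.6% and 22.1% of subpallial members. The cells nearest the Egfr threshold of 0.5 had values of 0.502 and 0.502 inside and 0.4998 and 0.4988 outside among pallial cells, against 0.519 and 0.501 inside and 0.494 and 0.4984 outside among subpallial cells. Emx1 was at 132 and 122 CPM in pallial aNSCs and Gsx2 at 122 and 121 CPM in subpallial aNSCs, and each was at 0 in the other class by construction. The regional call rested on 1 UMI in 57.1% and 49.1% of pallial members, against 55.6% and 51.7% of subpallial members. Slc1a3, the astroglial glutamate transporter, was at 1488 and 1606 CPM in pallial aNSCs, against 1381 and 2055 CPM in subpallial aNSCs.

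The rule treated Eomes and the Olig genes unevenly. Eomes, a factor of glutamatergic intermediate progenitors, barred a cell from the subpallial class and not from the pallial class, where 44 cells (9.59%) and 70 cells (12.5%) held it. Of these Eomes-bearing cells 47.7% and 62.9% also held Mki67 or Top2a, genes of dividing cells, against 21.7% and 17.5% of the other pallial members. A single Olig gene was allowed in both classes and was found in 14.4% and 12.6% of pallial members, against 22.2% and 32.2% of subpallial members. Olig2, which marks progenitors primed for oligodendrocytes, was at 15.6 and 8.31 CPM in pallial aNSCs and at 44.0 and 21.8 CPM in subpallial aNSCs. List counts that moved most without these cells are given below beside the counts with them.

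Depth differed between the classes. Pallial members had medians of 11597 and 13860 UMIs, against 13300 and 16225 UMIs for subpallial members. Shares of cells with a UMI are therefore given both as deposited and with every cell thinned to 5000 UMIs, which among members left out 2 subpallial cells of replicate 2. Exact Clopper-Pearson 95% intervals are in brackets and cover counting error only. Endothelial or microglial cells of the same libraries (20 and 39 cells, with medians of 10973 and 15466 UMIs) serve as a measure of free RNA for genes that these cells do not use themselves.

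The name aNSC was checked against genes of division, which the rule did not use, and it held only in part. Mki67 or Top2a was found in 24.2% [20.3 to 28.4] and 23.1% [19.7 to 26.8] of pallial aNSCs as deposited, against 44.4% [32.7 to 56.6] and 28.9% [21.7 to 36.8] of subpallial aNSCs. The share was 20.0% and 20.5% in endothelial or microglial cells and 38.6% and 26.1% over all P12 cells kept. Thinned, it was 15.3% and 16.5% in pallial aNSCs, 31.9% and 23.8% in subpallial aNSCs, and 5.26% [0.133 to 26.0] and 12.8% [4.30 to 27.4] in endothelial or microglial cells. At equal depth both pallial shares and the subpallial share of replicate 2 lay within the intervals of these cells, of which there were 19 and 39 and which may divide themselves, so that they are no clean measure of free RNA for these genes. Most members of either class held neither gene. The rule therefore selects cells with Egfr and Slc1a3, and the name aNSC is used here in that sense.

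**Figure D2:**
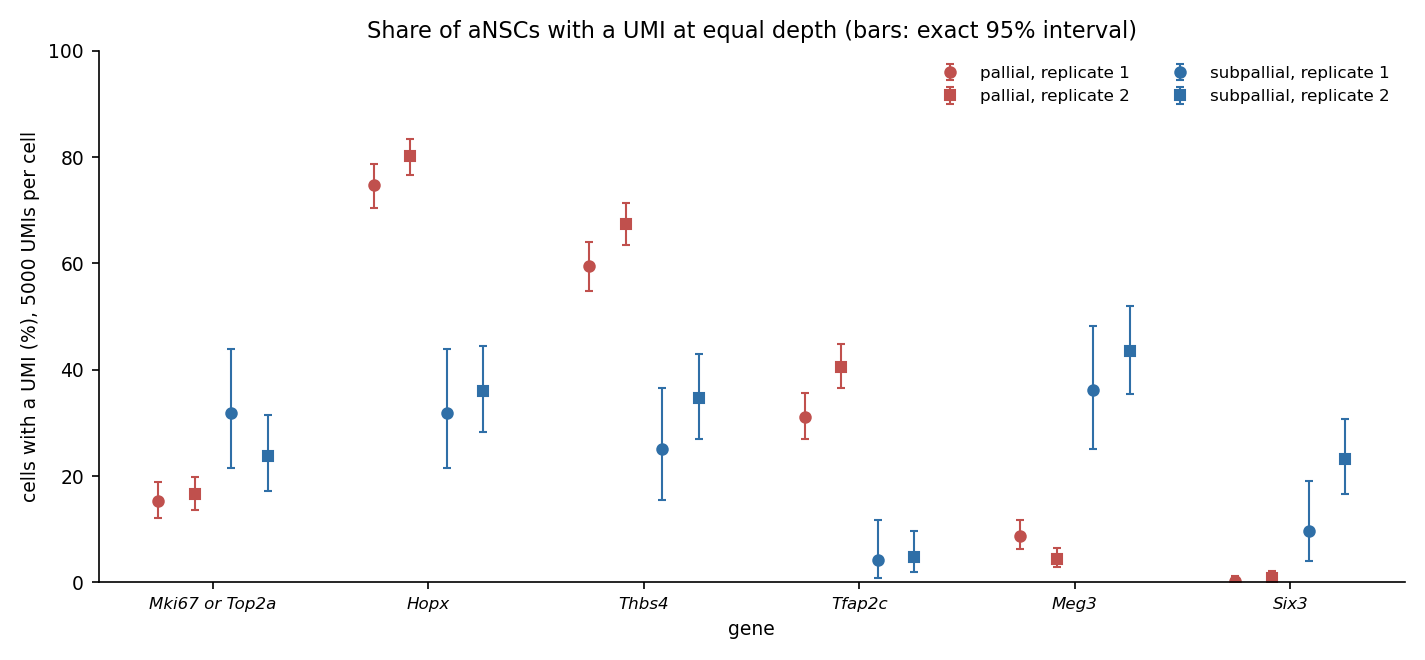
Percent of aNSCs with a UMI (y axis) after each cell was thinned to 5000 UMIs, for genes on the x axis, with exact 95% intervals as bars. Hopx, Thbs4 and Tfap2c were found in more pallial cells, and Meg3 and Six3 in more subpallial cells, in both libraries, whereas the intervals for Mki67 or Top2a overlapped between classes in replicate 2.

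To compare the classes, UMIs were summed per class and library and fitted with edgeR's quasi-likelihood test with the library as a block. Of 12334 genes outside the rule, 301 (2.44%) were higher and 299 (2.42%) were lower in pallial than in subpallial aNSCs at an adjusted p under 0.05. Together these are 4.86% of all genes tested. All 600 had the same sign in both libraries, which this paired test nearly requires of a gene that passes, so it is no separate support. The median log2 fold change over all genes tested was -0.0084. These counts depended on the model, since 47 and 35 genes passed without the library block, 75 and 63 passed in DESeq2, and 216 and 143 passed with upper-quartile scaling. The 24 genes with the largest changes passed in all these fits, and 43 higher and 32 lower genes did so in all. The fit leaves 1 residual degree of freedom, and in simulated data it recovered 1% of genes changed by a log2 fold change of 0.5, 72.5% of those changed by 1 and 94% of those changed by 2. At sizes of 1 and 2, 9 of 154 and 8 of 196 calls were false. The simulation gave all genes the same dispersion and both classes of a library the same shift. Recovery of genes whose difference varies more between libraries was therefore not measured.

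Of the 12 genes with the largest rise in pallial aNSCs, Tfap2c, Zic2 and Lmo3 encode transcription factors or a partner of them. Tfap2c, the AP-2 gamma factor known from cortical basal progenitors of the mouse, had 76.4 and 113 CPM in pallial aNSCs of replicates 1 and 2, against 20.2 and 15.3 CPM in subpallial aNSCs. The classes did not overlap, and the log2 fold change was 2.53 ± 0.22 (SE; adjusted p = 4.66e-06). Thinned, Tfap2c was found in 31.2% [26.9 to 35.6] and 40.6% [36.5 to 44.8] of pallial aNSCs, against 4.17% [0.868 to 11.7] and 4.76% [1.94 to 9.57] of subpallial aNSCs, a share like that of endothelial or microglial cells (5.26% and 2.56%). As deposited it was found in 50.8% and 69.8% of pallial aNSCs, against 13.9% and 12.8% of subpallial aNSCs. Tfap2c lies at chr2:172545678-172558622 (GRCm38.p6).

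Zic2, a zinc-finger factor of the dorsal and midline forebrain, had 36.6 and 39.9 CPM in pallial aNSCs, against 5.50 and 5.08 CPM in subpallial aNSCs (log2 fold change 2.89 ± 0.28, adjusted p = 1.37e-05). Its neighbour Zic5, chosen after its values were seen, lies beside it on chromosome 14 (Zic5 at chr14:122459160-122465658 and Zic2 at chr14:122475384-122480328). Zic5 had 62.5 and 74.1 CPM in pallial aNSCs, against 22.9 and 24.7 CPM in subpallial aNSCs (1.53 ± 0.18, adjusted p = 1.06e-04). Both genes of this pair were thus higher in every pallial sum. Zic1 on chromosome 9, also chosen after its values were seen, had 21.7 and 30.7 CPM in pallial aNSCs, against 23.8 and 10.2 CPM in subpallial aNSCs, and the classes overlapped (0.84 ± 0.32, adjusted p = 0.184).

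Lmo3, a LIM-only partner of transcription factors, had 32.2 and 32.4 CPM in pallial aNSCs, against 4.58 and 3.63 CPM in subpallial aNSCs (3.03 ± 0.31, adjusted p = 2.45e-05). The steepest rise of the 12 was that of Icosl, a ligand of the T cell receptor ICOS, at 29.3 and 29.1 CPM in pallial aNSCs, against 1.83 and 3.27 CPM in subpallial aNSCs (3.36 ± 0.35, adjusted p = 2.75e-05). Hrk, a BH3-only activator of cell death, had 29.3 and 32.3 CPM in pallial aNSCs, against 3.66 and 3.27 CPM in subpallial aNSCs (3.20 ± 0.32, adjusted p = 2.43e-05). In these low-level genes the subpallial libraries held few UMIs and the pallial libraries lay close together.

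Other rises were of genes for membrane and secreted proteins. Cntnap2, a neurexin-like adhesion protein, had 88.0 and 101 CPM in pallial aNSCs, against 18.3 and 10.5 CPM in subpallial aNSCs (2.86 ± 0.23, adjusted p = 2.30e-06). Pcdh15, a protocadherin known from the tip links of hair cells, had 33.8 and 38.8 CPM in pallial aNSCs, against 9.16 and 2.54 CPM in subpallial aNSCs (2.99 ± 0.36, adjusted p = 1.16e-04). C1ql3, a secreted C1q-like protein of synapses, had 51.3 and 50.2 CPM in pallial aNSCs, against 15.6 and 4.36 CPM in subpallial aNSCs (2.66 ± 0.31, adjusted p = 8.83e-05). The subpallial libraries differed widely for both, with log2 fold changes of 1.87 and 3.88 for Pcdh15 and of 1.71 and 3.49 for C1ql3 in replicates 1 and 2, and the classes still did not overlap. Angptl1, an angiopoietin-like secreted protein, had 25.5 and 20.5 CPM in pallial aNSCs, against 1.83 and 4.72 CPM in subpallial aNSCs (2.53 ± 0.37, adjusted p = 7.13e-04). The small heat shock protein Hspb8 (2.92 ± 0.31), the phosphoglucomutase-related Pgm5 (2.87 ± 0.34) and the transcript C030018K13Rik (3.00 ± 0.33) completed the 12, with 20.6 to 39.4 CPM in pallial sums, against 2.75 to 5.50 CPM in subpallial sums.

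**Figure D3:**
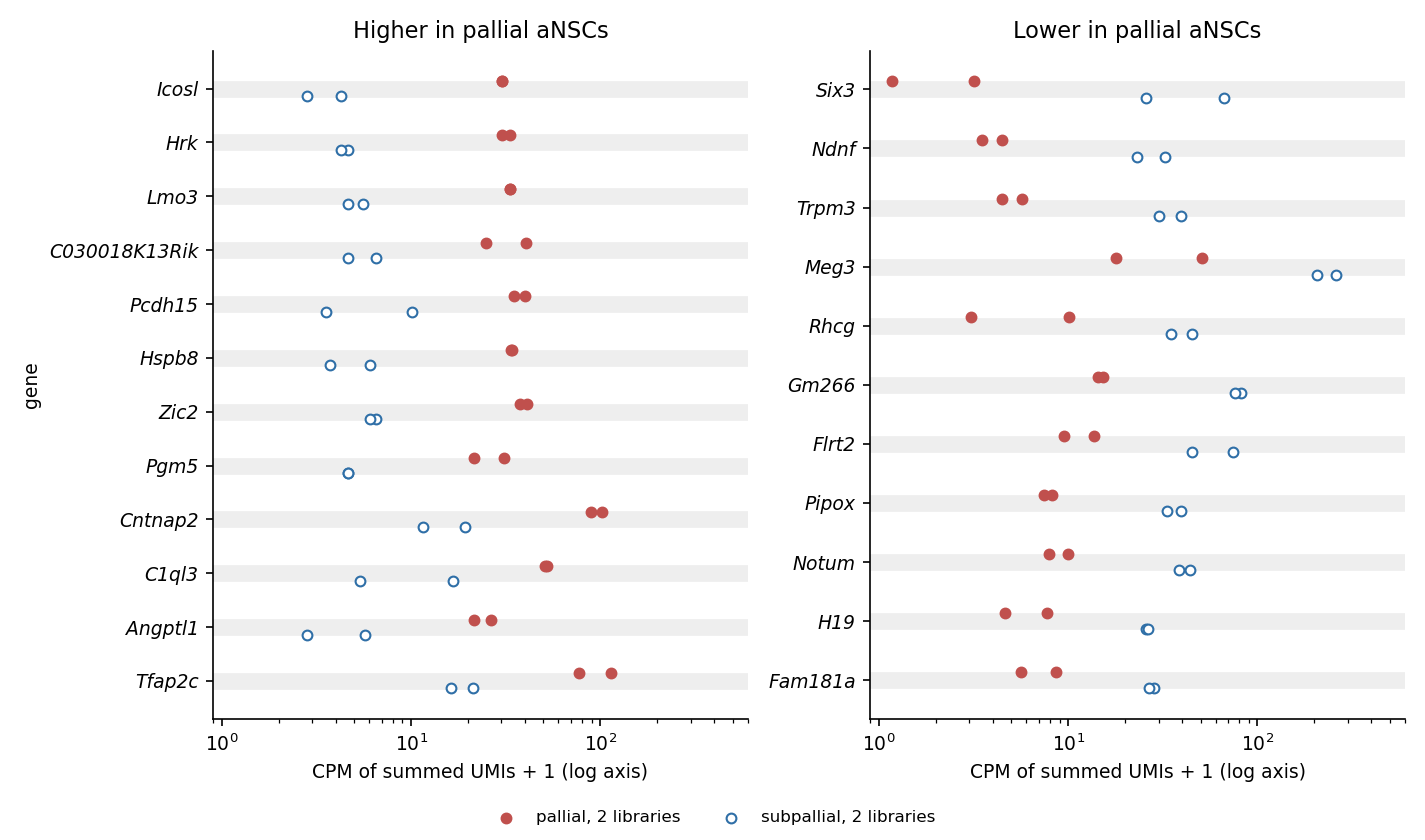
CPM plus 1 of the UMIs summed in each class (x axis, log scale) for the 12 genes with the largest rise (left) and 11 of the 12 with the largest fall (right) in pallial aNSCs (y axis), 1 point per library. Filled points are pallial and open points subpallial. For each gene drawn the 2 pallial points lay on one side of the 2 subpallial points, which the choice of genes by size of change makes likely.

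Six3 showed the largest fall of the 12. This homeobox factor of the ventral forebrain had 0.173 and 2.16 CPM in pallial aNSCs, against 24.7 and 65.4 CPM in subpallial aNSCs (-5.20 ± 0.35, adjusted p = 4.51e-07). It was found in 1 of 459 and 6 of 562 pallial cells as deposited, against 15 of 72 and 59 of 149 subpallial cells. At equal depth these were 0.218% [0.00552 to 1.21] and 0.890% [0.289 to 2.06] of pallial cells, against 9.72% [3.999 to 19.0] and 23.1% [16.6 to 30.8] of subpallial cells. Among endothelial or microglial cells of replicate 2, 0 of 39 held it, and this count leaves room for a share of 7.69%. Six3 (chr17:85613608-85626191) was thus found in few pallial cells, and most subpallial cells held no Six3 UMI either.

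The imprinted noncoding RNAs Meg3 and H19 were lower in pallial aNSCs, whereas Kcnq1ot1, another imprinted RNA, chosen after its values were seen, was higher (0.58 ± 0.14, adjusted p = 0.0262). Meg3, expressed from the maternal allele, had 49.9 and 16.8 CPM in pallial aNSCs, against 259 and 206 CPM in subpallial aNSCs (-2.98 ± 0.22, adjusted p = 8.28e-07). Thinned, it was found in 8.71% and 4.45% of pallial aNSCs, against 36.1% and 43.5% of subpallial aNSCs, and in 0 of 19 and 1 of 39 endothelial or microglial cells. As deposited these shares were 12.0% and 8.01% in pallial aNSCs, against 51.4% and 57.7% in subpallial aNSCs. Meg3 lies at chr12:109540996-109571729, and Dlk1, an imprinted gene of the same cluster and a Notch ligand-like protein, lies at chr12:109452485-109463336. Dlk1 had 1.73 and 0.431 CPM in pallial aNSCs, against 10.99 and 6.90 CPM in subpallial aNSCs (-3.21 ± 0.56, adjusted p = 0.00284). H19, another maternally expressed RNA, had 3.64 and 6.69 CPM in pallial aNSCs, against 24.7 and 25.4 CPM in subpallial aNSCs (-2.23 ± 0.31, adjusted p = 5.15e-04). Meg3, Dlk1 and H19 fell in both libraries, Dlk1 at a low level.

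A further 8 falls were of genes with diverse products. Trpm3, a cation channel, had 4.68 and 3.45 CPM in pallial aNSCs, against 29.3 and 38.5 CPM in subpallial aNSCs (-3.12 ± 0.30, adjusted p = 1.42e-05). Ndnf, a secreted neurotrophic factor, had 3.46 and 2.48 CPM in pallial aNSCs, against 22.0 and 31.6 CPM in subpallial aNSCs (-3.24 ± 0.34, adjusted p = 3.37e-05). Notum, an enzyme that inactivates Wnt proteins by removing their lipid, had 6.93 and 8.95 CPM in pallial aNSCs, against 37.6 and 43.2 CPM in subpallial aNSCs (-2.33 ± 0.24, adjusted p = 2.58e-05). For all 3 the pallial sums lay far below the subpallial sums in both libraries. Flrt2, an adhesion protein of axon guidance (-2.46 ± 0.20), the ammonium transporter Rhcg (-2.80 ± 0.32), the peroxisomal oxidase Pipox (-2.37 ± 0.25), and Gm266 and Fam181a (-2.48 ± 0.18 and -2.19 ± 0.29) had 2.08 to 14.2 CPM in pallial sums, against 25.8 to 80.6 CPM in subpallial sums.

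Regional transcription factors were then taken from a list that leaves out the genes of the rule. Of 12 pallial factors tested 6 were higher and 1 was lower, with a median log2 fold change of 0.76, beside 2.44% and 2.42% of all genes. Pax6, a pallial homeobox factor of radial glia, had 469 and 402 CPM in pallial aNSCs, against 307 and 239 CPM in subpallial aNSCs (0.68 ± 0.15, adjusted p = 0.0116). Emx2, which acts with Emx1 in patterning the cortex, had 115 and 115 CPM in pallial aNSCs, against 69.6 and 59.6 CPM in subpallial aNSCs (0.85 ± 0.15, adjusted p = 0.00304). These 2 dorsal factors were shared by both classes and differed by less than 1 on the log2 scale. Dmrta2, a factor of the dorsal midline and cortex, had 93.0 and 101 CPM in pallial aNSCs, against 44.0 and 23.97 CPM in subpallial aNSCs (1.63 ± 0.21, adjusted p = 2.09e-04). Fezf2, which specifies deep-layer cortical neurons, had 142 and 106 CPM in pallial aNSCs, against 66.0 and 27.6 CPM in subpallial aNSCs (1.54 ± 0.19, adjusted p = 1.31e-04). Neurog2, the proneural factor of glutamatergic neurons, had 10.0 and 23.1 CPM in pallial aNSCs, against 4.58 and 1.82 CPM in subpallial aNSCs, and its log2 fold change was 1.12 in replicate 1 and 3.59 in replicate 2 (fitted 2.76 ± 0.49, adjusted p = 0.00292). Gli3, a hedgehog effector that patterns the dorsal telencephalon, was the factor that fell, at 56.3 and 79.6 CPM in pallial aNSCs, against 96.2 and 124 CPM in subpallial aNSCs (-0.70 ± 0.14, adjusted p = 0.00949).

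Of 11 subpallial factors tested 0 were higher and 4 were lower, with a median of -0.40, beside 2.44% and 2.42% of all genes. Besides Six3 they were Helt, Meis1 and Rorb. Helt, a factor of GABAergic neuron specification in the midbrain of the mouse, had 1.21 and 0.539 CPM in pallial aNSCs, against 18.3 and 5.08 CPM in subpallial aNSCs (-3.59 ± 0.54, adjusted p = 9.89e-04). Meis1, a homeobox cofactor, had 10.4 and 14.5 CPM in pallial aNSCs, against 23.8 and 38.9 CPM in subpallial aNSCs (-1.34 ± 0.24, adjusted p = 0.00287). Rorb, an orphan nuclear receptor, had 335 and 349 CPM in pallial aNSCs, against 429 and 601 CPM in subpallial aNSCs (-0.58 ± 0.16, adjusted p = 0.0454). The other 7 factors did not pass. In DESeq2 only 2 were lower, Six3 and Helt, and without the library block only 1, Six3. Without members that held Mki67 or Top2a, 3 of 9 subpallial factors were higher and 3 were lower.

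**Figure D4:**
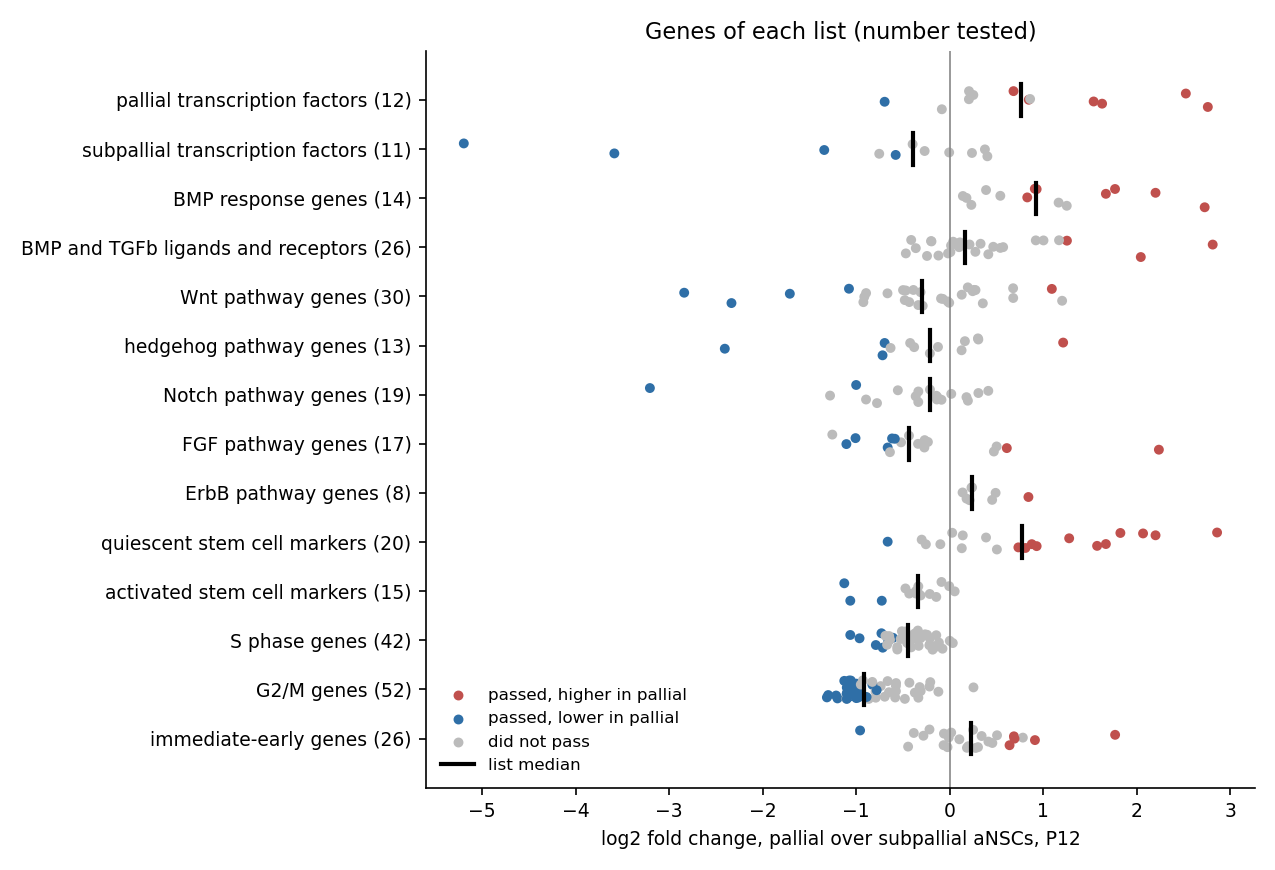
Log2 fold change of pallial over subpallial aNSCs (x axis) for each tested gene of 14 lists (y axis, number tested in parentheses). Red points passed the test and were higher in pallial cells, blue points passed and were lower, grey points did not pass, and black bars are list medians, which lay at 0.92 for BMP response genes and at -0.92 for G2/M genes.

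BMP response genes were higher in pallial aNSCs. Of 14 tested, 7 rose and 0 fell, all 14 had a log2 fold change above 0, and the median was 0.92. Over all genes 2.44% rose and 2.42% fell, and the median was -0.0084. Without the library block the call ended for 5 of the 7, leaving Hopx and Id3, and DESeq2, upper-quartile scaling and thinning each called 5. Id3, an inhibitor of basic helix-loop-helix factors and a direct BMP target, had 1278 and 1245 CPM in pallial aNSCs, against 353 and 441 CPM in subpallial aNSCs (1.67 ± 0.18, adjusted p = 3.33e-05). Id1 had 384 and 361 CPM in pallial aNSCs, against 199 and 196 CPM in subpallial aNSCs (0.91 ± 0.14, adjusted p = 0.00133). Id2 had 587 and 564 CPM in pallial aNSCs, against 264 and 340 CPM in subpallial aNSCs (0.93 ± 0.16, adjusted p = 0.00256). The 4 Id genes differed in size and not in direction, and Id4 had 948 and 733 CPM in pallial aNSCs, against 486 and 450 CPM in subpallial aNSCs (0.83 ± 0.16, adjusted p = 0.00612). Hopx, a homeodomain-only protein of quiescent stem cells, had 548 and 592 CPM in pallial aNSCs, against 132 and 118 CPM in subpallial aNSCs (2.20 ± 0.16, adjusted p = 8.08e-07). Thinned, Hopx was found in 74.7% [70.5 to 78.6] and 80.2% [76.7 to 83.5] of pallial aNSCs, against 31.9% [21.4 to 44.0] and 36.1% [28.3 to 44.4] of subpallial aNSCs, and in 5.26% and 30.8% of endothelial or microglial cells. As deposited it was found in 89.1% and 93.4% of pallial aNSCs, against 54.2% and 52.3% of subpallial aNSCs. Smad9, a BMP-activated Smad, had 7.10 and 10.8 CPM in pallial aNSCs, against 1.83 and 3.27 CPM in subpallial aNSCs (1.77 ± 0.46, adjusted p = 0.0374), and Atoh8, at 5.72 and 5.18 CPM in pallial aNSCs, against 0.916 and 0.726 CPM in subpallial aNSCs, also passed.

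Promoters of these 7 genes were searched for GGCGCC, a GC-rich motif that BMP-activated Smad proteins are known to bind, which reads alike on both strands. RefSeq promoters (GRCm38.p6, 250 bases before to 50 bases after a start) were matched for 6 of the 7, all but Id1. Id2, Id4 and Smad9 held the motif, and Id3, Hopx and Atoh8 did not. The motif was found in 25.6% of 9461 promoters of tested genes, in 27.5% of those of genes called higher and in 22.7% of those of genes called lower. TAATTA, a core that homeodomain proteins bind and that also reads alike on both strands, was found in 3.16% of all, in 5.51% of those called higher and in 3.45% of those called lower. A match describes the letters and not a bound site. The windows around the matches before the starts of Id2 and Id4 are shown as examples, with the motif in capitals. Id3, which rose most among the Id genes, held no match, and the part of the motif in any rise was not tested. The Id2 window is chr12:25096258-25096342 on the minus strand, its match 231 bases before the start, and the Id4 window is chr13:48260908-48261033 on the plus strand, its match 148 bases before the start.
Id2: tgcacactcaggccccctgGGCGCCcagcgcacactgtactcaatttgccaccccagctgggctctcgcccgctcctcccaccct
Id4: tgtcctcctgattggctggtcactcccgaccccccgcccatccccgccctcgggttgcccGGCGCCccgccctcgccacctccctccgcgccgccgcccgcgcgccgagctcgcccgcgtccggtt

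Among 26 ligands, receptors and extracellular regulators of the BMP and TGFβ family 3 were higher and 0 were lower, with a median of 0.16. Over all genes 2.44% were higher and 2.42% were lower. Gdf5, a BMP-family ligand, had 17.5 and 23.5 CPM in pallial aNSCs, against 1.83 and 3.63 CPM in subpallial aNSCs (2.81 ± 0.37, adjusted p = 2.85e-04). Inhba, the activin A subunit, had 35.9 and 59.8 CPM in pallial aNSCs, against 22.9 and 19.6 CPM in subpallial aNSCs (1.25 ± 0.23, adjusted p = 0.00353). Wfikkn2, a secreted antagonist of myostatin and Gdf11, had 34.1 and 30.4 CPM in pallial aNSCs, against 9.16 and 6.90 CPM in subpallial aNSCs (2.04 ± 0.26, adjusted p = 2.32e-04). The 23 others, receptors included, did not pass. Without the library block or in DESeq2 only Gdf5 and Wfikkn2 passed, and when thinned 0 genes of this list did.

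Many single markers of quiescent stem cells were higher in pallial aNSCs as well. Of 20 tested 11 rose and 1 fell, with a median of 0.77, beside 2.44% and 2.42% of all genes. Hopx, Id2 and Id3 belong to both this list and the BMP response list. Summed, the 20 genes had 30214 and 28386 CPM in pallial aNSCs, against 21144 and 28402 CPM in subpallial aNSCs. The sum was thus higher in pallial aNSCs of replicate 1 only. Among quiescent cells 10 of the 20 were higher and 5 were lower in pallial cells, so the list also differs by region there. Thbs4, a thrombospondin of V-SVZ astrocytes, had 437 and 556 CPM in pallial aNSCs, against 112 and 169 CPM in subpallial aNSCs (1.83 ± 0.15, adjusted p = 3.86e-06). Thinned, it was found in 59.5% and 67.4% of pallial aNSCs, against 25.0% and 34.7% of subpallial aNSCs, and in 10.5% and 10.3% of endothelial or microglial cells. As deposited the shares were 70.6% and 79.5%, against 38.9% and 52.3%. Gfap, the intermediate filament of astroglia, had 775 and 870 CPM in pallial aNSCs, against 327 and 351 CPM in subpallial aNSCs (1.28 ± 0.16, adjusted p = 1.49e-04). Col9a1 (2.07 ± 0.34), Abca8a (1.58 ± 0.23), Cmya5 (0.88 ± 0.16), Rgs5 (0.81 ± 0.19), Aldoc (0.74 ± 0.20) and Cntnap2 also rose. Fgfr3 fell, at 46.6 and 51.0 CPM in pallial aNSCs, against 59.5 and 93.7 CPM in subpallial aNSCs (-0.66 ± 0.17, adjusted p = 0.0315). The rise of these genes stood beside more 1-UMI Egfr calls in the pallial class (53.8% and 40.0%, against 30.6% and 22.1%). With a higher Egfr threshold of 1, 11 rose and 1 fell (median 0.70). The part of Egfr level in this difference was not tested.

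Genes of the cell cycle were lower in pallial aNSCs, mostly in replicate 1. Of 52 G2/M genes 0 were higher and 27 were lower (median -0.92). Of 42 S phase genes 0 were higher and 7 were lower (median -0.44), beside 2.44% and 2.42% of all genes. Mki67, a chromosome coat protein of dividing cells, had 107 and 213 CPM in pallial aNSCs, against 365 and 312 CPM in subpallial aNSCs (-1.13 ± 0.21, adjusted p = 0.00469). Cdk1, the mitotic kinase, had 42.4 and 51.5 CPM in pallial aNSCs, against 128 and 94.1 CPM in subpallial aNSCs (-1.20 ± 0.17, adjusted p = 6.61e-04). Top2a, the topoisomerase of replicating chromosomes, had 234 and 345 CPM in pallial aNSCs, against 811 and 448 CPM in subpallial aNSCs (-1.07 ± 0.24, adjusted p = 0.0147). The subpallial sum of replicate 1, from 72 cells, was the highest for all 3. The gap between libraries was wide, since Ube2c, a ubiquitin-conjugating enzyme of mitosis, differed by -2.23 on the log2 scale in replicate 1 and by -0.28 in replicate 2. Of 15 markers of activated cells 0 were higher and 3 were lower, namely Mki67, Rrm2 and Ccnd1 (median -0.34), and 0 passed without the library block.

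The cell cycle result depended on which cells were taken. Calls over all genes, 301 higher and 299 lower of 12334, moved as well and are the background of the list counts here. Without Olig UMIs they were 175 and 197 of 11862, and without Eomes-bearing cells 729 and 887 of 12237. They were 404 and 506 of 11578 without Mki67 or Top2a UMIs, and 19 and 10 of 10288 with them. Of 12334 genes, 47 and 35 passed without the library block, and 75 and 63 in DESeq2. Among members without an Olig1 or Olig2 UMI 0 of 52 G2/M genes passed in either direction (median -0.33), and 0 of 42 S phase genes did (median -0.01). Of the 15 activated markers 0 passed in either direction among these cells, and their median was 0.15. Without Eomes-bearing pallial cells, an alternative chosen after the data were seen, 47 of 52 G2/M genes and 39 of 42 S phase genes were lower (medians -1.36 and -1.07), as were 14 of 15 activated markers (median -1.02). Without the library block 1 G2/M gene and 0 S phase genes passed, and in DESeq2 2 and 1 did. Quiescent markers had 8 higher and 1 lower without Olig UMIs (median 0.50) and 10 higher and 3 lower without Mki67 or Top2a UMIs (median 0.46). BMP response genes gave 4 and 7 higher and 0 lower under these choices, and pallial factors 6 higher and 1 lower under both. Without the library block, however, quiescent markers gave 5 higher and 0 lower, BMP response genes 2 and 0, and pallial factors 2 and 0, and in DESeq2 these lists gave 7, 5 and 3 higher and 0 lower. Among cells that held an Mki67 or Top2a UMI, also chosen after the data were seen and with 32 and 43 subpallial cells, 5 of 19 quiescent markers and 2 of 9 BMP response genes were higher and 0 were lower.

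**Figure D5:**
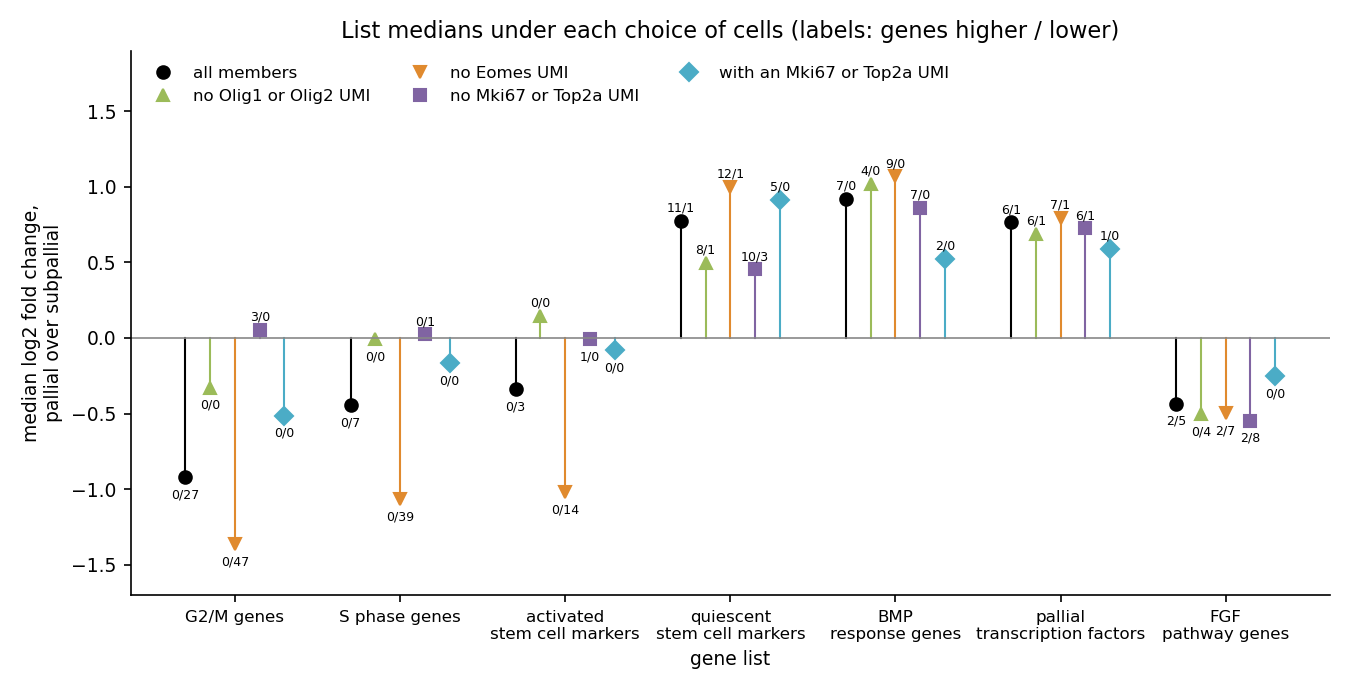
Median log2 fold change of pallial over subpallial aNSCs (y axis) of 7 gene lists (x axis) under 5 choices of cells, with the genes called higher and lower as labels. The G2/M median was -0.92 over all members, -0.33 without Olig1 or Olig2 UMIs and -1.36 without Eomes UMIs (choices by Mki67 or Top2a use G2/M genes themselves), whereas the medians of quiescent markers, BMP response genes and pallial factors stayed above 0 under each choice drawn.

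Signaling pathways differed by few members each. Over all genes tested 2.44% were higher and 2.42% were lower, and these shares stand beside every list count of the main fit from here on. Of 17 FGF pathway genes 2 were higher and 5 were lower (median -0.43). Fgfr1, a receptor, had 197 and 202 CPM in pallial aNSCs, against 136 and 126 CPM in subpallial aNSCs (0.61 ± 0.14, adjusted p = 0.018). The feedback inhibitors Spry2 (-0.62 ± 0.14), Spry4 (-1.01 ± 0.28) and Spred1 (-0.59 ± 0.15), the receptor Fgfr3 and the carrier protein Fgfbp3 (-1.10 ± 0.27) fell. Spry2 had 114 and 167 CPM in pallial aNSCs, against 175 and 256 CPM in subpallial aNSCs. The ligand Fgf18 passed, at 17.8 and 3.56 CPM in pallial aNSCs, against 0.916 and 1.82 CPM in subpallial aNSCs, with a log2 fold change of 4.13 in replicate 1 and 0.93 in replicate 2. No FGF gene passed in DESeq2 or without the library block.

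Of 30 Wnt pathway genes 1 was higher and 4 were lower (median -0.30). Sfrp1, a secreted Wnt antagonist, had 857 and 1086 CPM in pallial aNSCs, against 386 and 529 CPM in subpallial aNSCs (1.09 ± 0.16, adjusted p = 8.42e-04). Notum, the target gene Sp5 (-2.84 ± 0.65), the ligand Wnt7b (-1.71 ± 0.30) and the receptor Fzd5 (-1.08 ± 0.19) fell, Sp5 at 1.21 and 0.431 CPM in pallial aNSCs, against 5.50 and 5.08 CPM in subpallial aNSCs. Wnt antagonists thus lay on both sides in this fit, with Sfrp1 higher and Notum lower. Without the library block the call of Sfrp1 ended, and 0 Wnt genes were higher and 1, Notum, was lower. In DESeq2 1 Wnt gene was higher and 1 was lower. Of 13 hedgehog pathway genes 1 was higher and 3 were lower (median -0.21). Cdon, a coreceptor, had 99.4 and 145 CPM in pallial aNSCs, against 56.8 and 51.2 CPM in subpallial aNSCs (1.21 ± 0.18, adjusted p = 6.49e-04). Ptch1, a receptor and target of the pathway, had 78.0 and 104 CPM in pallial aNSCs, against 118 and 182 CPM in subpallial aNSCs (-0.72 ± 0.14, adjusted p = 0.00647), and Scube1 (-2.40 ± 0.35) and Gli3 fell too. Hedgehog genes gave 1 higher and 1 lower in DESeq2, and 0 higher and 1 lower, Scube1, without the library block.

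Of 19 Notch pathway genes 0 were higher and 2 were lower (median -0.21), namely Dlk1 and the receptor Notch3, the second at 7.10 and 14.3 CPM in pallial aNSCs, against 14.7 and 28.3 CPM in subpallial aNSCs. Notch genes gave 0 calls when thinned, without the library block or with P2 and P22 added, 1 lower in DESeq2, and 1 higher and 7 lower without Eomes-bearing cells. Of 8 ErbB genes 1 was higher (median 0.24), the ligand Nrg1, at 82.5 and 69.1 CPM in pallial aNSCs, against 44.9 and 39.2 CPM in subpallial aNSCs (0.84 ± 0.16, adjusted p = 0.0056), a call that ended without Olig UMIs, when thinned, without the library block and in DESeq2. Among 16 Eph receptors and ephrins (median -0.089) Epha4 rose (0.75 ± 0.14) and Epha3 fell, at 1.04 and 1.51 CPM in pallial aNSCs, against 8.24 and 14.5 CPM in subpallial aNSCs (-3.15 ± 0.47, adjusted p = 9.38e-04). Of 28 semaphorins, slits, netrins and their receptors 2 were higher and 2 were lower (median 0.087). Ntn1, the guidance cue netrin 1, had 2.60 and 2.16 CPM in pallial aNSCs, against 14.7 and 13.4 CPM in subpallial aNSCs (-2.56 ± 0.41, adjusted p = 0.0014), and its subpallial libraries lay close together. Robo1, a receptor for slits, fell at 0.866 and 2.59 CPM in pallial aNSCs, against 2.75 and 14.9 CPM in subpallial aNSCs. Sema3a and Nrp2, a ligand and a receptor of the semaphorin system, passed as higher with at most 9.92 CPM in any sum, and Sema3a was at 0 in subpallial aNSCs of replicate 1. Without the library block or in DESeq2 only Ntn1 of this list and Epha3 of the Eph list passed.

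Dhrs3, a retinal reductase, had 39.7 and 27.1 CPM in pallial aNSCs, against 16.5 and 7.99 CPM in subpallial aNSCs (1.54 ± 0.25, adjusted p = 0.00159). The call of Dhrs3 ended when thinned, without the library block and in DESeq2. Of 17 cadherins and protocadherins (median -0.042) Pcdh15, Pcdh8 (0.93 ± 0.17) and Cdh4 (0.77 ± 0.18) rose and Cdh11 (-0.72 ± 0.18) fell. Without the library block or in DESeq2 only Pcdh15 of this list passed. Of 21 proneural and neurogenic progenitor genes (median 0.15) Neurog2, Gadd45g (0.94 ± 0.15) and Tcf4 (0.73 ± 0.19) rose and Cd24a (-1.22 ± 0.28) fell. Without Eomes-bearing cells 5 genes of this list were higher and 7 were lower, with a median of -0.24, and without the library block 0 passed. Of 26 immediate-early genes, which dissociation is known to induce, 5 were higher and 1 was lower (median 0.23), with Junb at 1914 and 1265 CPM in pallial aNSCs, against 1045 and 890 CPM in subpallial aNSCs (0.69 ± 0.18, adjusted p = 0.0428), and the part of dissociation in any result was not tested. Without Olig UMIs 1 immediate-early gene was higher and 0 were lower, and without the library block or when thinned 0 passed.

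Markers of other cell types were measured in both classes. The 5 defining oligodendroglial markers summed to 4.92 and 6.63 CPM in pallial aNSCs, against 14.3 and 6.59 CPM in subpallial aNSCs. Of 9 oligodendroglial markers tested only Matn4 passed, as higher (1.82 ± 0.35). The 10 defining neuroblast markers summed to 12.9 and 4.86 CPM in pallial aNSCs, against 22.3 and 6.96 CPM in subpallial aNSCs, and Dlx5, Gad1 and Neurod1 were at 0 in subpallial aNSCs of replicate 1. Both lists were thus highest in the subpallial sum of replicate 1. The defining ependymal markers summed to 44.8 and 49.4 CPM in pallial aNSCs, against 54.5 and 53.1 CPM in subpallial aNSCs, beside 52.2 and 84.1 CPM over all cells kept, with Ccdc153 at 0 in both classes of replicate 1, and Mlf1 passed as lower (-1.26 ± 0.20). Defining astrocyte markers summed to 366 and 387 CPM in pallial aNSCs, against 224 and 392 CPM in subpallial aNSCs, beside 257 and 433 CPM over all cells kept, and of 10 astrocyte markers Gjb6 (1.18 ± 0.22) and Aldoc rose, while Grin2c (-1.64 ± 0.19) and Slc6a11 (-0.78 ± 0.20) fell. Microglial defining markers reached at most 3.76 CPM in pallial aNSCs, against at most 1.46 CPM in subpallial aNSCs. How far cells of these types bear on any difference was not tested.

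To place aNSCs beside quiescent cells, the same regional rule was applied to Slc1a3-bearing cells without Egfr, Dcx, Foxj1, Mki67 or Top2a UMIs, which gave 1066 pallial and 104 subpallial cells. There 981 of 11563 genes (8.48%) passed between pallial and subpallial cells. Defining microglial markers summed to 2.68 and 42.9 CPM in quiescent pallial cells, against 4.86 and 524 CPM in quiescent subpallial cells, all 6 detected in replicate 2, and their part in this comparison or in the interaction was not tested. Of genes higher in pallial aNSCs and tested in both states, 286 of 295 (96.9%) had the same sign in quiescent cells, and of those lower 189 of 231 (81.8%), beside 62.4% of 11425 genes in all. Tfap2c had 116 and 168 CPM in quiescent pallial cells, against 4.92 and 10.2 CPM in quiescent subpallial cells, and Six3 had 0.858 and 0.936 CPM in quiescent pallial cells, against 41.8 and 74.5 CPM in quiescent subpallial cells. Notum stood apart by its levels, with 6.35 and 2.43 CPM in quiescent pallial cells, against 4.92 and 7.90 CPM in quiescent subpallial cells, although its interaction did not pass (adjusted p = 0.564).

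The difference between states was itself tested as an interaction of region and state, and 3 of 12696 genes (0.0236%) passed, all with a smaller regional difference in activated than in quiescent cells. They were Kcnq1ot1, Fxyd6 and Id1, and no gene passed in the other direction, where DESeq2 called 0. An unadjusted p under 0.05 was reached by 352 of the 12696 genes in that other direction and by 589 in the direction of the 3. Unadjusted counts of this kind also arise without any difference. Id1 had 362 and 329 CPM in quiescent pallial cells and 101 and 60.9 CPM in quiescent subpallial cells, so that its log2 fold change was 0.91 in activated and 2.18 in quiescent cells (difference -1.32 ± 0.21, adjusted p = 0.0148). In simulated data with the same dispersion for all genes, this fit recovered 34% of interactions of a log2 size of 1 and 75% of those of 2. A gene that did not pass is therefore not shown to differ alike in both states.

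The same rule was applied at P2 and P22, where each age had 1 library and the classes were compared without a test. Of genes higher at P12 that had at least 10 UMIs, 171 of 204 (83.8%) were also higher in pallial cells at P2, beside 49.5% of all genes, and 168 of 188 (89.4%) at P22, beside 48.9%. Of genes lower at P12, 161 of 222 (72.5%) were lower at P2, beside 50.5%, and 220 of 242 (90.9%) at P22, beside 51.1%. The P2 values rest on 41 pallial and 7 subpallial cells, of which 4 and 6 held Mki67 or Top2a, and those of P22 on 22 and 35. Hopx had 417 CPM in pallial aNSCs, against 39.8 CPM in subpallial aNSCs at P2, and 276 against 19.9 CPM at P22. Thbs4 was nearly absent at P2, with 1 UMI in pallial aNSCs and 0 in subpallial aNSCs, and had 269 CPM in pallial aNSCs, against 109 CPM in subpallial aNSCs at P22. The regional difference in Thbs4 was thus seen at P12 and P22, and at P2 could not be read at this depth.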

How the data were processed

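The authors deposited UMI counts per gene and barcode, whole numbers without normalization, for 31053 genes of mm10. The submitters' processing notes name Cell Ranger 3.1.0 and Seurat 3, and the file headers Cell Ranger 3.1.0 for the P12 and 5.0.1 for the P2 and P22 libraries, so version goes with age. The P12 libraries held 8617 and 6400 barcodes and 106402687 and 80386488 UMIs, and the filter left 7006 and 4596 cells with medians of 11851.5 and 13899.5 UMIs. They shared 12 barcodes, none among members.

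Members and gene lists were chosen with earlier results of these data known, so that the lists give no independent evidence of direction. Each library yields both a pallial and a subpallial sum, and this shared origin is the pairing behind the library block. Sums were fitted in edgeR 4.0.16 (R 4.3.3) with TMM scaling, filterByExpr and Benjamini-Hochberg adjustment over all genes tested. CPM of single genes in pallial and subpallial cells use TMM-scaled totals at P12. Summed markers, other activated classes, and P2 and P22, where the labels give 1 library an age, use plain class totals. Levels are not compared between genes. The 24 genes with the largest changes are, among genes outside the rule that passed with the same sign in both libraries and reached 20 CPM in the higher class in both, the 12 with the largest rise and the 12 with the largest fall, of which 1 is not reported here. Scrublet (scanpy 1.11.5) called 112 doublets (1.60%) in replicate 1 and 4 (0.0870%) in replicate 2, where it did not work, so leaving out the 5% highest scores was used as an alternative. Reference cells held at least 3 of 5 endothelial or microglial markers. Alternatives were DESeq2 1.42.0, upper-quartile scaling, no filter, no block, added ages and other choices of cells. The edgeR fits of the regional difference and of the interaction were tested on simulated sums with 200 changed genes, and the choice and thinning of cells were not. Strand handling in counting is not given in the sources used here.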

Additional observations from a re-analysis of the deposited data

Results flagged for a closer look

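For 3 genes the difference between pallial and subpallial cells was itself found to differ between activated and quiescent cells of P12, by the interaction of region and state in edgeR's quasi-likelihood test with Benjamini-Hochberg adjustment over 12696 genes. Kcnq1ot1, an imprinted noncoding RNA, had an interaction of -1.83 ± 0.24 on the log2 scale (adjusted p = 0.0041). It had 217 and 233 CPM in pallial aNSCs, against 157 and 146 CPM in subpallial aNSCs, and 155 and 137 CPM in quiescent pallial cells, against 29.5 and 27.1 CPM in quiescent subpallial cells. Fxyd6, a regulator of the sodium pump, had an interaction of -1.47 ± 0.22 (adjusted p = 0.0122). It had 344 and 461 CPM in pallial aNSCs, against 137 and 143 CPM in subpallial aNSCs, and 488 and 642 CPM in quiescent pallial cells, against 83.6 and 68.8 CPM in quiescent subpallial cells. The interaction of Id1 was -1.32 ± 0.21 (adjusted p = 0.0148). Of 15 alternatives these genes passed in 10, 9 and 8, in the order given, and their interaction stayed negative in each. All 3 had higher sums in activated than in quiescent subpallial cells in both libraries. The subpallial quiescent sums rest on 40 and 64 cells, and those of replicate 2 held 524 CPM of defining microglial markers. Whether reads of the overlapping gene Kcnq1 enter the Kcnq1ot1 counts was not tested.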

How the results depend on the processing

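Counts of genes called differed most with the cells and the model. Without Olig1 or Olig2 UMIs 175 genes were higher and 197 lower, without Mki67 or Top2a UMIs 404 and 506, with cells thinned to 5000 UMIs 69 and 70, in DESeq2 75 and 63, without the library block that pairs the classes 47 and 35, with upper-quartile scaling 216 and 143, without the filter on low counts 486 and 425, and with P2 and P22 added 152 and 150. Of 2 choices made after seeing the data, no Eomes UMI gave 729 and 887 and an Mki67 or Top2a UMI gave 19 and 10. The interaction, 0 genes more positive and 3 more negative in activated cells, became 1 and 3 with Egfr above 1, 3 and 1 with 2 UMIs of Emx1 or Gsx2, 18 and 75 without Eomes, 7 and 12 in cells with Mki67 or Top2a, 15 and 38 without the filter, 2 and 8 with P2 and P22 added, and 2 and 4 with P22 alone added, chosen after the data were seen. It was 0 and 0 without Olig genes, without Mki67 or Top2a, thinned and without the library block. The cause was not tested.

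The percent of genes with the P12 direction changed at P2 to 50.2 for higher genes without Mki67 or Top2a, and for lower genes to 55.4 (Egfr above 1), 49.6 (no Olig), 58.8 (2 UMIs) and 62.8 (doublets left out). With Egfr above 1 the P2 subpallial class is 2 cells, and without Mki67 or Top2a 1 cell. At P22 it changed to 79.3 and 84.7 with Egfr above 1, and to 77.1 and 79.2 without Mki67 or Top2a, for higher and lower genes. The share with Mki67 or Top2a was 34.8% and 32.5% in pallial and 56.8% and 42.9% in subpallial cells with Egfr above 1, 15.3% and 16.5% in pallial and 31.9% in subpallial cells of replicate 1 when thinned, and 16.8% in subpallial cells of replicate 2 without Olig genes.

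Without Mki67 or Top2a UMIs, a choice that removes cells by cell cycle genes, the log2 fold changes of 7 such genes reversed, to 0.046 (Tyms), 0.079 (Rrm1), 0.070 (Gmnn), 0.13 (Nusap1), 0.53 (Ube2c), 0.16 (Birc5) and 0.032 (Kif11). Of the 24 genes with the largest changes, thinning ended the call of Hrk and Angptl1, cells with Mki67 or Top2a ended those of 16, Angptl1 included, and none reversed under any alternative that could be fitted. With 1 replicate left out no test remains.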

Other observations

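Activated cells with none of Emx1, Gsx2, Dlx1 or Dlx2 detected (674 and 659 cells) were compared with both classes. They had values between those of pallial and subpallial aNSCs in both libraries for 23 of the 24 genes with the largest changes. These genes were picked for a wide gap between the classes, which makes values in between likely for other cells. The same share over all genes tested was not computed, so the count does not show what these cells are. Tfap2c had 61.4 and 63.2 CPM in these cells, Six3 9.62 and 25.7 CPM and Meg3 103 and 105 CPM. Cells with Dlx1 or Dlx2, which include cells on the way to GABAergic neurons, had 16.4 and 13.5 CPM of Tfap2c, 21.7 and 52.6 CPM of Six3, and 1055 and 1471 CPM of Top2a. Helt, which fell in pallial aNSCs, had 80.4 and 62.6 CPM in cells with Dlx1 or Dlx2. The few cells with both Emx1 and Gsx2 (17 and 9) had 11.3 and 25.4 CPM of Six3 and 50.9 and 4.23 CPM of Tfap2c, and doublets cannot be told apart from cells that express both.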
